A study of Drosophila melanogaster with 3 samples.

Results

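Among 12158 places marked by a rabbit antibody against Grainy head (Grh) in Drosophila melanogaster embryos, 336 had a high deposited score and no counterpart in the peak list of a mouse antibody against the same factor. They were chosen by their deposited score and by the mouse peak positions, as rabbit peaks with a score of 25 or more whose first base lay more than 250 bp from the first base of every mouse peak on the same chromosome. In all, 686 rabbit peaks, or 5.64% of the list, had such a score. The other 350 had a mouse peak within 250 bp and served as the comparison. Over the whole rabbit list 85.6% of peaks had no mouse peak within 250 bp, against 49.0% (exact 95% interval 45.2 to 52.8%) of those scoring 25 or more. Score and distance to the mouse peaks are therefore given as descriptions.

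In epithelial cells, among them those of the epidermis, the trachea and the foregut, Grh acts as a DNA-binding regulator of transcription. It is known for switching on genes of the cuticle and of cell junctions, for its part in closing and repairing the barrier after wounding, and for opening chromatin at epithelial enhancers. Chromatin immunoprecipitation followed by sequencing (ChIP-seq) recovers DNA bound to such a factor with an antibody. A place seen by one antibody and not by another can thus be read beside a place seen by both.

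The embryos were of the w1118 strain, were 13 to 16 h old and were fixed in 1.8% formaldehyde before the chromatin was sheared to between 0.1 and 0.5 kb. Chromatin was precipitated with mouse anti-Grh antibody, rabbit anti-Grh antibody or rabbit IgG, the non-specific control, with 1 library each. The peaks of the mouse anti-Grh library (1638) and of the rabbit anti-Grh library are described, while the IgG library was not analysed here. Whole embryos were used, so the cells that gave a peak are not known. With 1 library per antibody there is no spread between libraries and no test between the antibodies, and read depth is unknown. The intervals given are exact (Clopper-Pearson) binomial intervals, which cover counting error only and treat neighbouring peaks as independent. Positions are first bases of the deposited 2 bp intervals, counted from 1, in the dm3 build. The lists name no genes and no dm3 annotation was used here, so the peaks are described by position.

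The rabbit-only peaks reached higher scores than the comparison peaks. Their scores ran from 25 to 232.8 with a median of 38.6 (quartiles 30.5 and 54.2). The comparison peaks ran from 25 to 109.3 with a median of 32.2 (quartiles 27.7 and 41.1). The ranges overlapped up to 109.3, above which lay rabbit-only peaks and no comparison peak. Of rabbit peaks scoring from 25 to below 30, 78 of 218 had no mouse peak, or 35.8% (29.4 to 42.5%). The share was 46.4% (39.6 to 53.4%) from 30 to below 40 and 54.9% (47.2 to 62.4%) from 40 to below 60. It was 75.4% (63.5 to 84.9%) from 60 to below 100, and 12 of 13 peaks scoring 100 or more had no mouse peak. Each band thus had a higher share than the one below it, although neighbouring intervals overlapped in every step but that from 40-60 to 60-100. What the score measures is not stated in the sources used here.

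**Figure D1:**
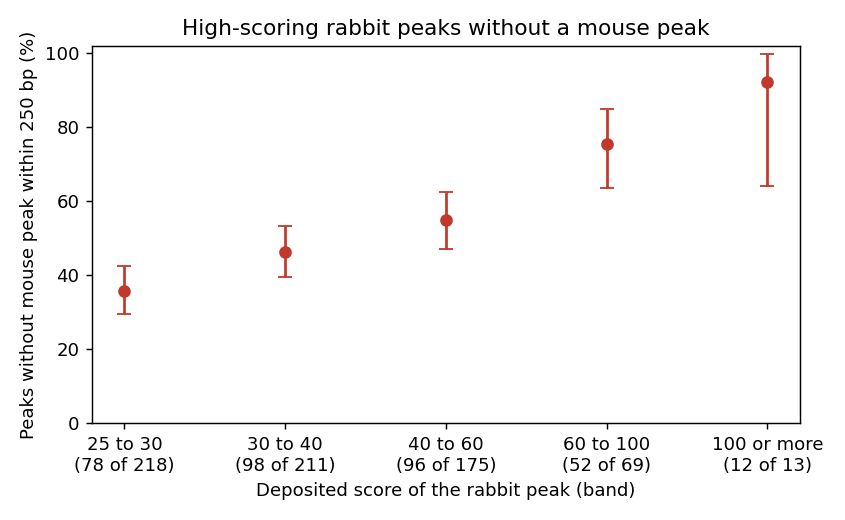
Share of rabbit peaks without a mouse peak within 250 bp (y axis, percent) in 5 bands of the deposited score (x axis), with exact 95% binomial intervals as bars and counts under each band. The points climb from 35.8% in the lowest band to 92.3% in the highest.

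The 10 highest-scoring rabbit-only peaks were spread over 3R, 3L, 2R, X and the heterochromatic sequence 3RHet. The highest, on 3R at 13442982, scored 232.8 and lay in a group of 3 rabbit peaks, with its nearest neighbour 492 bp away and a mouse peak 3530 bp away. The next, on 3R at 796603, scored 212.7 and lay 2.86% of the arm's length from its centromere end. Its nearest rabbit peak was 1072 bp away. The peak on 3L at 19133668 scored 211.4 and was in a group of 3. On 3RHet the peak at 2349411 scored 145.0 and had a rabbit neighbour 253 bp away, whereas that at 2107254 scored 130.9 and had none within 242157 bp. Single peaks on 2R at 4139212 (score 134.8) and on X at 17645869 (score 132.2) had their nearest rabbit peak 5704 and 8943 bp away. The last of the 10 were on 3R at 1604645 (score 127.0), on 2R at 4282046 (117.3) and on X at 423980 (114.0). They had no common arrangement: 5 lay in groups of 2 or 3 rabbit peaks and 5 stood alone at a distance of 1 kb.

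The comparison peaks of highest score each had a mouse partner, as the choice of that set required. The highest, on 3L at 20685793 (score 109.3), had a mouse peak 7 bp away with a mouse score of 19.3. It was followed by peaks on 3L at 13022000 (90.5), X at 17207613 (89.3), 2L at 4030410 (77.4) and, with a score of 76.6, on 3R at 3636105. The mouse partners of these 4 scored 17.7, 21.9, 31.5 and 2.26. The fifth of these, second in the authors' numbering, thus had a mouse score close to the lowest in the mouse list, 2.0.

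At the score threshold the peaks passed gradually from one side to the other. The rabbit-only peaks just above it were on 2L at 7702679 and 20787558 (both 25) and on X at 13976914 (25.1). Those just below it were on 3R at 12239651 (24.9), 2L at 8889011 (24.8) and 3R at 2900177 (24.8). The nearest mouse peaks lay 125418, 7220 and 91143 bp away above the threshold and 9986, 7668 and 15070 bp away below it.

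Most rabbit-only peaks were far from any mouse peak rather than just beyond 250 bp. The median distance was 33154 bp (quartiles 12789 and 78406 bp), and 299 of 336, or 89.0% (85.1 to 92.1%), lay more than 5 kb away. Over all rabbit peaks 63.9% lay that far or had no mouse peak on their sequence. That list includes peaks with a mouse peak within 250 bp, which cannot lie that far, so part of this difference follows from the choice. Rabbit peaks scoring below 25 that also had no mouse peak lay closer, with a median of 18108 bp (quartiles 4714.5 and 48795 bp, 10064 peaks). The distance was 251 to 500 bp for 7 rabbit-only peaks, over 500 bp and up to 1 kb for 9, and over 1 and up to 5 kb for 21. It was over 5 and up to 20 kb for 78, over 20 and up to 100 kb for 152, and over 100 kb for 69. In the comparison set the farthest mouse peak was 240 bp away and the median 8 bp, so the gap between 240 and 284 bp, the smallest distance of a rabbit-only peak, held no peak of this score.

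**Figure D2:**
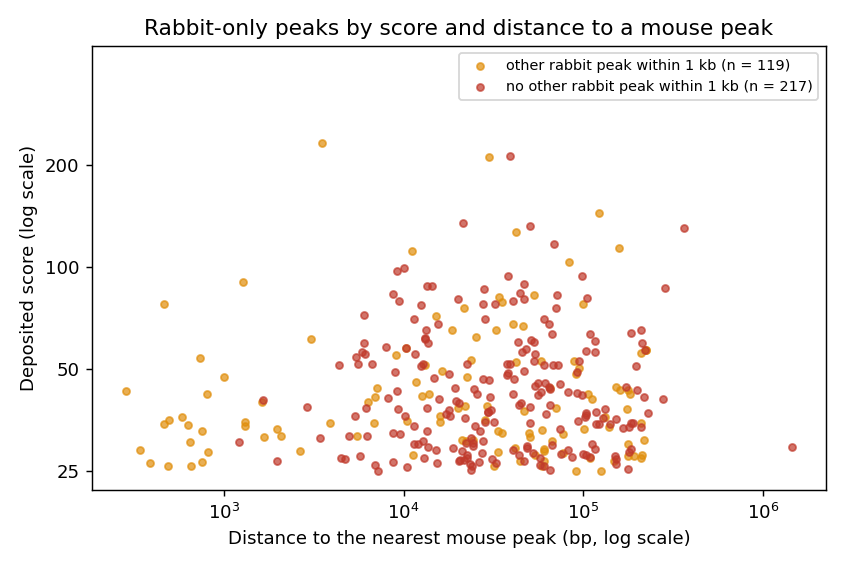
Deposited score (y axis, log scale) against distance to the nearest mouse peak in bp (x axis, log scale) for the 336 rabbit-only peaks, each a point. The 119 peaks with another rabbit peak within 1 kb and the 217 without one are drawn apart, and most points lie beyond 5 kb.

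The peaks farthest from a mouse peak were on 2RHet at 822909 (1453012 bp, score 29.5), on 3RHet at 2107254 (364177 bp), on X at 20631562 (284193 bp, score 86.7), on X at 12925412 (276182 bp, score 40.9) and on 3L at 9967466 (228725 bp, score 37.3). By arm the median distance was 58388 bp on X (65 peaks), 44926 bp on 2L (61), 27841 bp on 3R (87), 27256 bp on 3L (64) and 22458 bp on 2R (47). The quartiles overlapped between all of these arms, from 22367 to 104194 bp on X and from 10246 to 48454 bp on 2R.

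A smaller part of the rabbit-only peaks lay beside a site of both antibodies. There were 37 within 5 kb of a mouse peak, and each of those mouse peaks had a rabbit peak of its own within 250 bp. The share of all mouse peaks with such a rabbit peak was not counted here, so this need not set these mouse peaks apart. In 32 of the 37 cases the rabbit-only peak scored higher than the rabbit peak at the mouse site. On 3R at 14922074 the rabbit-only peak scored 78.2 and the mouse peak lay 463 bp away, while the rabbit peak at that mouse peak scored 11.3. The closest of all, on 3R at 13128, scored 43.1 against 14.9 and lay 284 bp from the mouse peak. Next were the peaks on 2R at 11373165 (343 bp, 28.9 against 13.3), 2L at 8278042 (390 bp, 26.4 against 11.1) and 3L at 5969968 (468 bp, 34.5 against 13.1). The 5 cases with the higher score at the mouse site were on 3L at 17958078, 3R at 12450498, 2738082 and 12658953, and 2R at 16439646, which were singled out after their values were seen. The mouse peaks beside these 37 had a median mouse score of 4.83, and those at the 350 comparison peaks 8.45. Since the rabbit-only peaks were kept for scores of 25 or more while the rabbit peak at the mouse site could have any score, the count of 32 is a description.

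The rabbit-only peaks stood apart from other rabbit peaks more often than the comparison peaks did. No other rabbit peak lay within 1 kb of 217 of 336, or 64.6% (59.2 to 69.7%), against 133 of 350, or 38.0% (32.9 to 43.3%), in the comparison set. Over all rabbit peaks the share was 46.8%, so the rabbit-only peaks lay above and the comparison peaks below the whole list. The median distance to the nearest other rabbit peak was 2761 bp (quartiles 489.5 and 6866 bp) for rabbit-only peaks. It was 669 bp (386.2 and 2389.8 bp) for comparison peaks and 872 bp (390 and 3291 bp) over the list. The quartile ranges overlapped. The shares were closest at 500 bp, within which 74.1% (69.1 to 78.7%) of rabbit-only peaks, 63.7% (58.4 to 68.8%) of comparison peaks and 66.1% of all rabbit peaks had no other rabbit peak. Within 5 kb, 34.8% (29.7 to 40.2%) of rabbit-only peaks, 14% (10.5 to 18.1%) of comparison peaks and 18.0% of all rabbit peaks had no other rabbit peak. Within 10 kb the shares were 16.4% (12.6 to 20.8%), 5.43% (3.30 to 8.35%) and 8.23%.

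**Figure D3:**
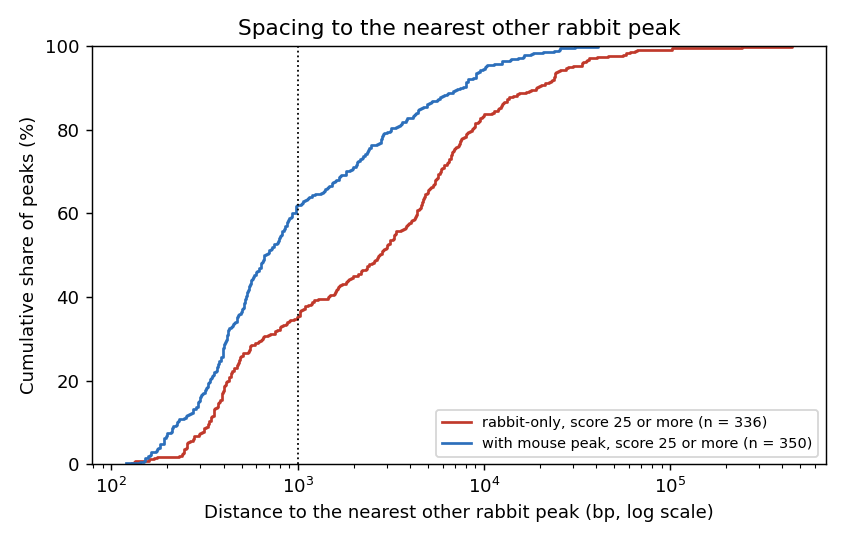
Cumulative share of peaks (y axis, percent) by distance to the nearest other rabbit peak in bp (x axis, log scale) for rabbit-only and comparison peaks scoring 25 or more; the dotted line marks 1 kb. The rabbit-only curve lies below the comparison curve over most of the range, with medians of 2761 and 669 bp.

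The difference in spacing was present at like scores. From 25 to below 30, 66.7% (55.1 to 76.9%) of 78 rabbit-only peaks and 34.3% (26.5 to 42.8%) of 140 comparison peaks had no rabbit neighbour within 1 kb. The shares were 59.2% (48.8 to 69.0%) and 39.8% (30.7 to 49.5%) from 30 to below 40, where the intervals overlapped, and 66.7% (56.3 to 76.0%) and 40.5% (29.6 to 52.1%) from 40 to below 60. From 60 to below 100 they were 73.1% (59.0 to 84.4%) of 52 and 41.2% (18.4 to 67.1%) of 17, again with overlapping intervals. At 100 or more only 5 of 12 rabbit-only peaks stood alone, and the comparison set held 1 peak. With the comparison peaks weighted to the score bands of the rabbit-only peaks, a setting chosen after seeing the data, their share was 41.1%.

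The direction was the same on each major arm. On 2L the share without a rabbit neighbour within 1 kb was 73.8% (60.9 to 84.2%) for rabbit-only and 35.9% (24.3 to 48.9%) for comparison peaks. It was 63.8% (48.5 to 77.3%) and 23.9% (14.3 to 35.9%) on 2R, and 63.1% (50.2 to 74.7%) and 30.4% (17.7 to 45.8%) on X. On 3L it was 67.2% (54.3 to 78.4%) and 48.5% (36.0 to 61.1%), and on 3R 60.9% (49.9 to 71.2%) and 45.7% (36.0 to 55.7%). The intervals overlapped on 3L and 3R and not on 2L, 2R and X.

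The most solitary rabbit-only peaks on the major arms were on 2L at 17963275, with a score of 64.1 and the nearest rabbit peak 101800 bp away, on 3R at 3470316 (score 26.3, 66641 bp) and on 2L at 4726220 (score 28.9, 65087 bp). Peaks on 2RHet at 822909 and 3RHet at 2107254 were farther still, at 452477 and 242157 bp, on sequences with few peaks. Each of these 5 was at least 82017 bp from a mouse peak.

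Within the set, isolation was least frequent close to mouse peaks. Of the 37 rabbit-only peaks up to 5 kb from a mouse peak, 24.3% (11.8 to 41.2%) had no rabbit neighbour within 1 kb. The share was 75.6% (64.6 to 84.7%) of the 78 at 5 to 20 kb, 69.1% (61.1 to 76.3%) of the 152 at 20 to 100 kb and 63.8% (51.3 to 75%) of the 69 beyond, so past 5 kb it was lower at each step, with overlapping intervals. Of the 37, none of the 16 up to 1 kb from a mouse peak stood alone and 9 of the 21 at 1 to 5 kb did, or 42.9% (21.8 to 66.0%). Each of these mouse peaks had a rabbit peak of its own, which lay within 1 kb of each of the 16 and by itself ends their isolation. Median scores in the 4 classes were 34.0, 42.8, 40.7 and 36.1, with overlapping quartiles. The number of other rabbit peaks within 10 kb was 5.46 ± 3.26 (SD over 37 peaks), 2.95 ± 2.0, 2.08 ± 1.91 and 1.91 ± 1.88.

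Where a rabbit-only peak had company, it was mostly the highest-scoring of its group, which the choice of high scores largely fixes for both sets. Peaks chained at gaps of up to 1 kb put the 336 into 324 groups, of which 217 were single peaks. Of the 119 in larger groups, 104 had the highest score there, or 87.4% (80.1 to 92.8%), as did 90.3% (85.6 to 93.9%) of the 217 comparison peaks in larger groups. The highest-scoring neighbour within 1 kb had a median of 0.298 times the score of the rabbit-only peak (quartiles 0.144 and 0.560), and 0.332 times (0.189 and 0.596) in the comparison set. Groups of 2 held 19.0% of rabbit-only, 34.6% of comparison and 26.2% of all rabbit peaks. For groups of 4 or more the shares were 6.25% (3.91 to 9.40%), 12.9% (9.53 to 16.8%) and 13.4%. Of the 119, 19 shared their group with a rabbit peak that had a mouse partner, or 16.0% (9.90 to 23.8%), as did 22.4% (21.3 to 23.6%) of all rabbit peaks in larger groups that had no mouse peak themselves. The nearest neighbours of the 119 lay at 200 bp or less for 6, over 200 and up to 300 bp for 19, over 300 and up to 400 bp for 34, over 400 and up to 500 bp for 28, and over 500 bp for 32.

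The rabbit-only peaks rarely stood beside each other, and this was also so for the comparison peaks. Another peak of the same set lay within 1 kb of 23 of 335 rabbit-only and 33 of 348 comparison peaks with another on their sequence. There were 313 groups with 1 rabbit-only peak, 10 with 2 and 1 with 3. The group with 3 was on chromosome 4 between 855120 and 856628, where 4 rabbit peaks included rabbit-only peaks at 855723 (score 27.3), 856231 (34.8) and 856627 (55.8). Pairs included those on 2R at 7953605 (67.1) and 7953961 (37.8), on 3L at 4072926 (90.4) and 4073316 (31.6), on 3L at 505893 (26.8) and 506229 (29.1), and on 2L at 1491989 (32.3) and 1492427 (28.4). None of these groups held a peak with a mouse partner. The chromosome 4 peaks at 856231 and 856627 had their deposited rank in common, as did both peaks of the 2R pair and of each 3L pair, so such peaks need not be separate bound regions. Of all 336, 75 had their rank in common with another rabbit peak. For 66 of the 75 every such peak lay within 1 kb, and for 10 one of them had a mouse partner. In the comparison set 122 of 350 had their rank in common with another rabbit peak. For 117 of the 122 every such peak lay within 1 kb, and for 67 one of them had a mouse partner. A rank in common was thus not particular to the rabbit-only peaks, although its share over all rabbit peaks was not counted here. A rabbit peak close to a comparison peak could match the same mouse peak, so the counts of 10 and 67 are descriptions.

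The surroundings held fewer peaks of both antibodies. Within 10 kb a rabbit-only peak had 2.62 ± 2.36 other rabbit peaks (SD over 336 peaks), a comparison peak 3.95 ± 2.88 (350) and any rabbit peak 4.11 ± 3.18. The spread over peaks was larger than these differences. Leaving out the 250 bp that the choice of peaks used, 80.1% (75.4 to 84.2%) of rabbit-only peaks had no mouse peak within 10 kb. This was so for 50.3% (44.9 to 55.6%) of comparison peaks and 61.8% of all rabbit peaks. Within 100 kb the shares were 20.5% (16.3 to 25.3%), 5.14% (3.08 to 8.01%) and 10.3%. Of the other rabbit peaks within 10 kb of a rabbit-only peak, 12.5% had a mouse partner, against 23.2% around comparison peaks and 16.4% around all rabbit peaks. The 250 bp were not left out here. A close neighbour of a comparison peak could match that peak's own mouse peak, so the choice of peaks can itself add to this difference.

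Relative to the density around comparison peaks, the difference in rabbit peaks was larger between 500 bp and 5 kb than in the nearest ring or far away. In peaks per Mb it was largest from 500 bp to 1 kb. From 250 to 500 bp there were 506.0 rabbit peaks per Mb around rabbit-only peaks and 645.7 around comparison peaks. From 500 bp to 1 kb there were 205.4 and 477.1, from 1 to 2 kb 148.8 and 267.1, and from 2 to 5 kb there were 103.7 and 189.0. From 50 to 100 kb there were 104.3 and 111.5. Beyond 2 kb the density around rabbit-only peaks thus stayed between 103.7 and 120.5 per Mb, near its level at the largest distance. Mouse peaks were at 9.42 per Mb from 2 to 5 kb around rabbit-only peaks and 24.8 around comparison peaks, and at 12.8 and 15.3 from 50 to 100 kb. Other rabbit peaks of score 25 or more had means of 1.47 around rabbit-only and 1.45 around comparison peaks within 100 kb, and of 0.173 and 0.240 within 10 kb.

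**Figure D4:**
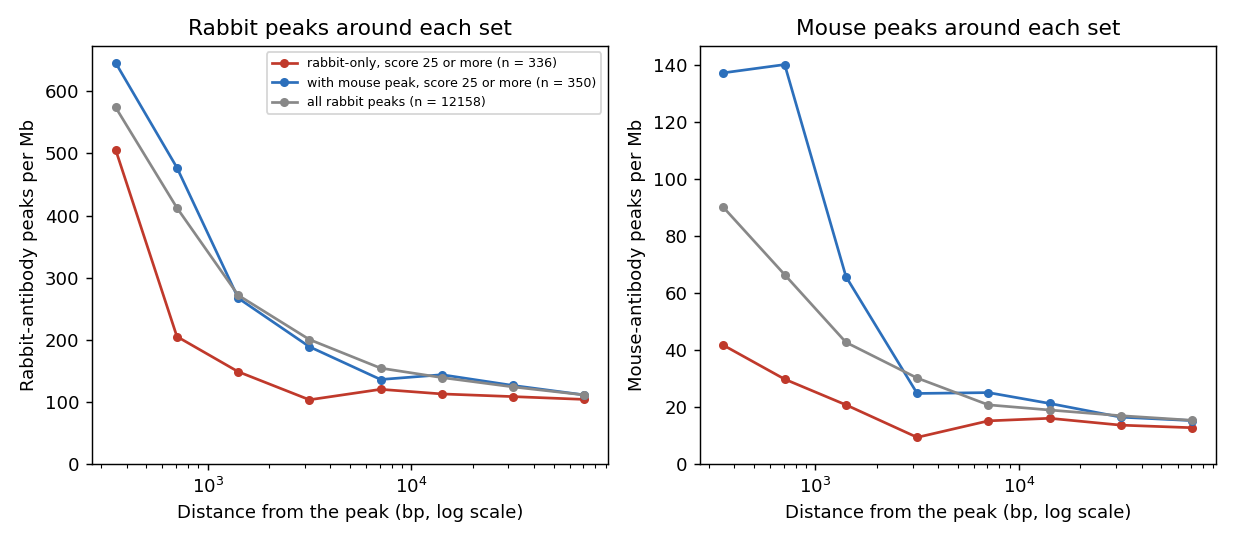
Density of rabbit peaks (left) and mouse peaks (right), in peaks per Mb (y axis), in rings of distance from the peak in bp (x axis, log scale), around rabbit-only peaks, comparison peaks and all rabbit peaks; each point is the mean of 1 ring from 250 bp to 100 kb, placed at the ring's geometric middle. The rabbit-only lines lie lowest in each ring, at 205.4 against 477.1 rabbit peaks per Mb from 500 bp to 1 kb.

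By chromosome arm the rabbit-only and comparison peaks were similarly spread, with the main differences on X, 2R, 3R and chromosome 4. X carried 65 of 336 rabbit-only peaks, or 19.3% (15.3 to 24.0%), 46 of 350 comparison peaks, or 13.1% (9.79 to 17.1%), and 16.7% of all rabbit peaks. The 2 intervals overlapped. On 2R the shares were 14% (10.5 to 18.2%), 19.1% (15.2 to 23.7%) and 20.6%. The shares on 2L were 18.2%, 18.3% and 16.9%, and on 3L 19.0%, 18.9% and 20.3%. On 3R, with 87 rabbit-only and 105 comparison peaks, they were 25.9% (21.3 to 30.9%), 30% (25.2 to 35.1%) and 24.7%. The rabbit-only and comparison intervals overlapped on 2R and 3R as well, and on 3R the rabbit-only share was the closer to that of all rabbit peaks. Read the other way, 58.6% (48.8 to 67.8%) of the 111 peaks scoring 25 or more on X had no mouse peak, and 41.2% (32.1 to 50.8%) of the 114 on 2R, with 45.3% to 49.2% on the other major arms. Scores of rabbit-only peaks had medians between 37.6 on 3L and 41.5 on 2R, so no arm held only weak or only strong ones.

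**Figure D5:**
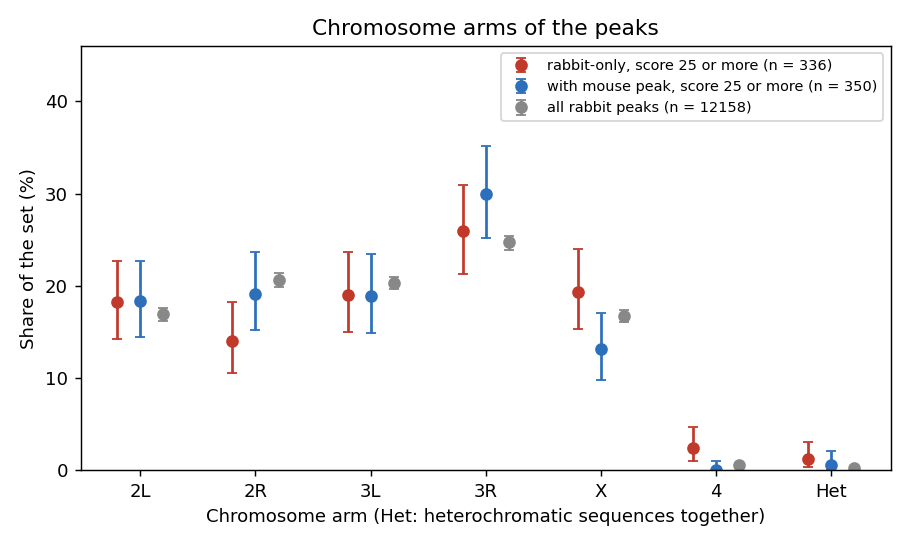
Share of each set of peaks (y axis, percent) on each chromosome arm (x axis), with exact 95% binomial intervals as bars, for rabbit-only peaks, comparison peaks and all rabbit peaks. On X the rabbit-only share is 19.3% and the comparison share 13.1%, and on chromosome 4 they are 2.38% and 0.

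Chromosome 4, the small and largely heterochromatin-like autosome, had 8 rabbit peaks of score 25 or more, and all 8 (exact interval from 63.1% upward) were without a mouse peak. They made up 2.38% (1.03 to 4.64%) of the rabbit-only set, against 0.576% of all rabbit peaks and 0 of 350 comparison peaks, which allows a share of up to 0.857% by a limit of 3 counts and 1.05% by the exact interval. The 8 fell into 6 groups, and 2 of them had their rank in common. Besides the group of 3 given above they were at 89383 (score 42.4), 445428 (39.2), 957902 (44.4), 1000670 (63.7) and 1133694 (31.0). Their mouse distances ran from 24304 to 209958 bp. The density on chromosome 4 was 6.38 rabbit-only peaks per Mb, against 2.22 to 3.12 on the major arms, with lengths taken as the highest peak end. All rabbit peaks together were less dense there, at 55.8 per Mb against 89.6 to 118.7. The share of all 70 rabbit peaks on chromosome 4 without a mouse peak was not counted here. The heterochromatic sequences held 4 rabbit-only peaks, namely those on 2RHet at 822909 and on 3RHet at 2107254, 2349411 and 2378447 (score 35.3), and 2 comparison peaks. These made up 1.19% (0.325 to 3.02%) and 0.571% (0.0693 to 2.05%) of their sets, against 0.239% of all rabbit peaks.

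At both ends of the major arms the shares of rabbit-only and comparison peaks were close, with overlapping intervals. In the tenth of the arm next to the centromere lay 27 of 324, or 8.33% (5.56 to 11.9%), against 25 of 348 comparison peaks, or 7.18% (4.70 to 10.4%), and 6.06% of all rabbit peaks. Of the 27, 14 were on 3R, 7 on 2L, 4 on 2R, 2 on X and 0 on 3L. On 3R also lay 16 of the 25 comparison peaks and 348 of the 731 rabbit peaks in this part. Within 3R this part held 16.1% (9.09 to 25.5%) of rabbit-only, 15.2% (8.97 to 23.6%) of comparison and 11.6% of all rabbit peaks. The high count on 3R was thus not particular to the rabbit-only peaks. Over the major arms, the part of the same size at the telomere end held 14.8% (11.1 to 19.2%), 14.4% (10.9 to 18.5%) and 11.7%. Each of the other parts of this size held between 7.10% and 12.0% of the rabbit-only peaks.

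The windows of 100 kb with the most rabbit-only peaks held few of them. There were 278 windows with any, of which 228 had 1, 43 had 2, 6 had 3 and 1 had 4. The window with 4 was on 3R from 12000001 to 12100000, where 47 rabbit peaks and 5 mouse peaks lay and no comparison peak. Among those with 3, the windows on 3L from 4800001 to 4900000 and on 3R from 700001 to 800000 had 10 and 14 rabbit peaks and no mouse peak. Those on 3R from 2600001 to 2700000 and from 12600001 to 12700000 had 14 and 25 rabbit peaks and 3 and 6 mouse peaks.

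The authors' numbering put the rabbit-only peaks ahead of comparison peaks of like score. The basis of the numbering is not stated, and it comes from the same list as the score. Their median number was 331.5 (quartiles 114 and 844.2) of 12158, against 1485 (731.2 and 2108.8) for comparison peaks. From 25 to below 30 the medians were 619.5 and 2142, from 30 to below 40 they were 457 and 1614, from 40 to below 60 they were 286.5 and 841, and from 60 to below 100 they were 97.5 and 564. The quartile ranges did not overlap from 30 to below 40 and did overlap from 25 to below 30, from 40 to below 60 and from 60 to below 100. Among the first 500 numbers were 203 rabbit-only peaks, or 60.4% (55.0 to 65.7%) of the set, and 53 comparison peaks, or 15.1% (11.6 to 19.3%). These numbers made up 4.11% of all rabbit peaks, so both sets were above the whole list.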

How the data were processed

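Reads were aligned with Bowtie to dm3, per the submitters' processing notes. No aligner version, peak caller, calling threshold or role of the IgG library is given in the sources used here. For each anti-Grh library the authors deposited a peak list of its own, with a score, a number and a rank for each 2 bp interval. No unit is stated for the deposited score, and it was used only within the rabbit list or, for mouse scores, within the mouse list. Peaks were matched by first bases within 250 bp, and rabbit peaks were chained at gaps of up to 1 kb. The end of the last peak on an arm, over both lists, stood for the arm's length, which makes arms too short. The centromere lies at the high end of 2L, 3L and X and at the low end of 2R and 3R.

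The members and the comparison were chosen with earlier results of these data known. The peaks named were the 10 highest by score, the 5 farthest from mouse and from rabbit peaks, the 5 closest to a mouse peak, 3 on each side of the score threshold, every member outside the major arms, the 5 groups and windows with the most members, and the 5 highest comparison peaks; exceptions are stated. No p-value was computed over peaks, which are not replicates. Intervals are exact 95% binomial; the limit for a count of 0 is 3 counts of the total. Distances and matching were tested on simulated data. The tools were pandas 2.3.3, NumPy 2.4.6, SciPy 1.17.1 and matplotlib 3.10.9 under Python 3.11.15. Sequences and genes at the peaks were not analysed here.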

Additional observations from a re-analysis of the deposited data

How the results depend on the processing

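Of 39 values recomputed for 5 shares under other settings, 31 stayed within the 95% interval of the reported value. The share of high-scoring peaks without a mouse peak (49.0%) was 44.8% at a score threshold of 20 and 62.3% at 40. The share without a rabbit neighbour was 74.1% at 500 bp (comparison 63.7%) and 34.8% at 5 kb (comparison 14%), by construction, and the rabbit-only share was above the comparison share under all 9 alternatives. The share on X was above the comparison share under all 7. The share next to the centromere was 2.16% in the twentieth of the arm next to the centromere (comparison 2.59%), and at a score threshold of 40 it was 9.74% (comparison 10.4%), so its order against the comparison turned under 2 of 8 alternatives; the cause was not tested. The share over 5 kb from a mouse peak was 93.4% when mouse peaks within 1000 bp counted as present, 93.1% at a score threshold of 40, and 65.8% at 20 kb, by construction. Weighting the comparison to the members' score bands was chosen after seeing the data and gave 12.6% on X. No paired analysis was possible because there was a single library per antibody, which also left no replicate to omit. Read depth is unknown, so a missing mouse peak does not show that the mouse antibody bound nothing there.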
